A study of Ceratotherium simum simum with 6 samples.

Results

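Nuclear receptors and their coregulators were followed in granulosa cells, the somatic cells around the oocyte of a follicle, from 2 southern white rhinoceroses. The members were 36 genes listed by the UniProt-style names that the deposited transcript table uses. Of these, 35 had a locus among the 22569 named loci of the series (25914 loci in all), and NR2C1 was not analysed here. The 35 were 27 nuclear receptors, 6 coregulators and the 2 membrane-associated progesterone receptor components PGRC1 and PGRC2. Where a name stood on more than 1 locus, as for RXRA, RORA and PGRC1, the locus with the highest total was taken.

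Rhino 2 and rhino 1 were each represented by 3 RNA-seq libraries of wild-type granulosa cells, labelled as in vivo and as taken before IVM, in vitro maturation. Each group is therefore 1 animal, and no treatment separates the groups. Nothing in the labels tells if the 3 libraries were made from separate follicles or collections. The p-values below measure only the spread among these libraries, and that spread may be technical. Neither age nor cycle stage is given in the labels.

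Nuclear receptors are transcription factors whose ligand-binding domain is switched by a small lipophilic molecule, such as a steroid, a retinoid, a thyroid hormone, a fatty acid or an oxysterol. Steroid receptors mostly bind DNA as homodimers, whereas retinoic acid, thyroid hormone, vitamin D, PPAR and LXR receptors bind as heterodimers with an RXR, and several orphan receptors act without a known classical ligand. Coregulators such as the NCOA coactivators and the NCOR1 and NRIP1 corepressors are recruited by the receptors and raise or lower transcription. In granulosa cells, oestrogen and progesterone signalling is known for its part in follicle growth, survival and ovulation.

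The read counts of each library summed to 1523904, 703708 and 1078480 in rhino 2 replicates 1, 2 and 3, and to 13288936, 672410 and 1449450 in rhino 1 replicates 1, 2 and 3. Levels are given as CPM, counts per 1000000 counts of the library. A single count is worth 0.656, 1.42 and 0.927 CPM in the rhino 2 libraries and 0.0753, 1.49 and 0.690 CPM in the rhino 1 libraries. A count of 0 allows up to 3 counts, which is 1.97 to 4.26 CPM in rhino 2 and 0.226 to 4.46 CPM in rhino 1. These limits cover counting error only. Rhino 1 replicate 1 stood apart from the other 5 libraries in depth and in strand. It placed 94.5% of its counts on named genes, whereas the other 5 placed 2.31 to 2.61% there and 86.1 to 90.2% on unnamed models that lie opposite a named gene. Each locus value below is the sum of a named gene and of the unnamed models whose exons cover at least 50% of the shorter exonic length on its opposite strand.

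Whether a member could be counted in all 6 libraries thus depended on its opposite-strand models. Of the 35 members, 26 had at least 1 such model. The other 9 had none: ESR2, MCR, RARB, RARG, THA, THB, VDR, NR1D1 and PRGC1. For these 9, a 0 in the 5 libraries counted on the opposite strand cannot by itself be read as a lack of RNA. Whether the lack of a model goes with little RNA was not tested. THA has the named locus NR1D1 opposite it, as set out below. Among the 26, the models covered at least 90% of the named exonic bases in 14 and between 50 and 90% in 11. Several of these models carried the introns of the named gene. The opposite-strand models of ESR1 held 7 of 7 annotated introns, those of RXRB 9 of 9, those of RXRA 8 of 8 and those of NCOR1 38 of 42.

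**Figure D1:**
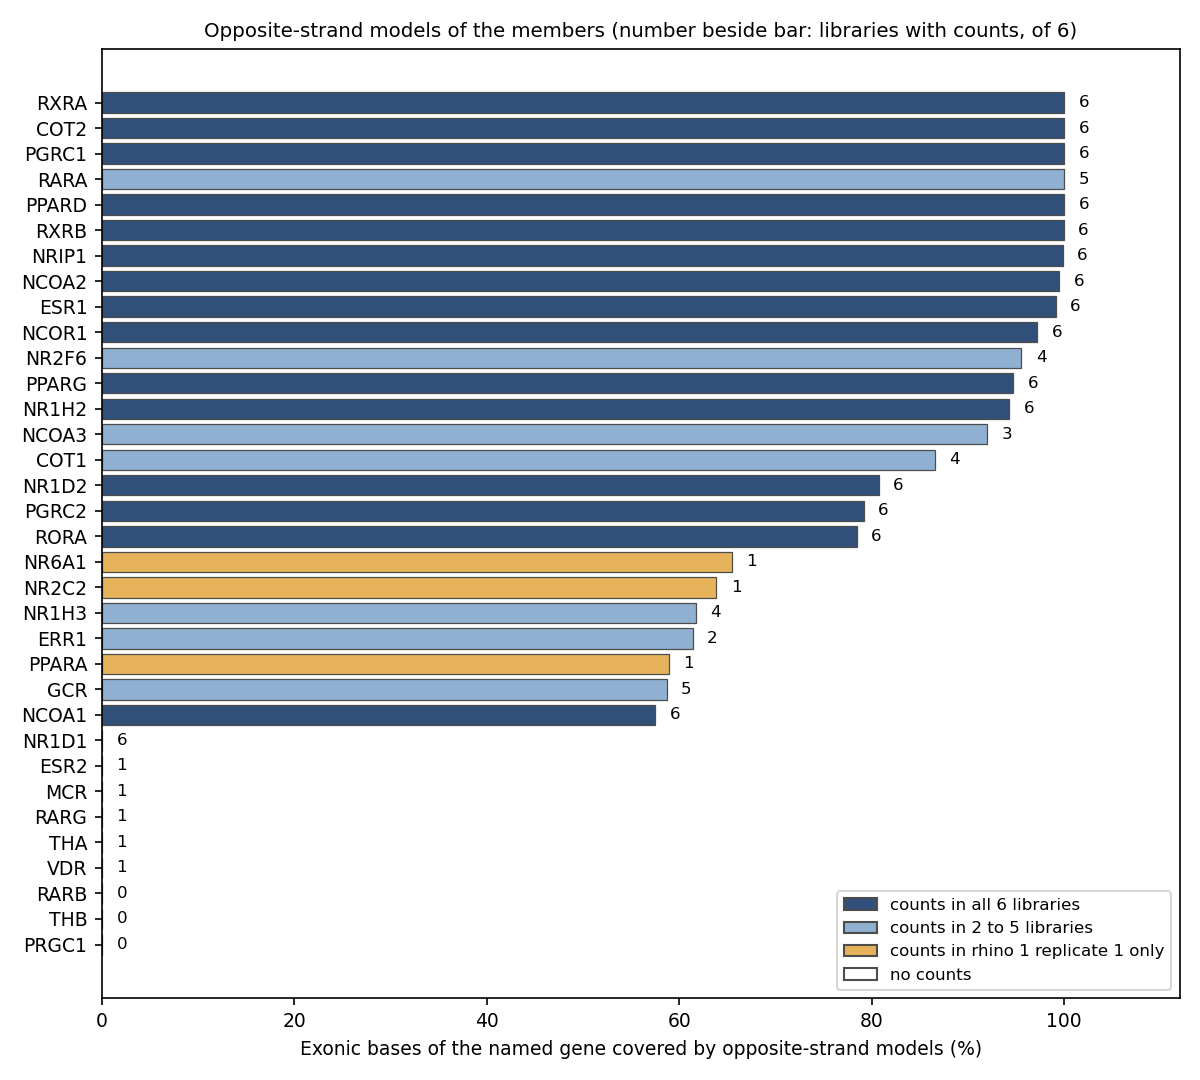
Share of the exonic bases of each named gene that is covered by opposite-strand models (horizontal axis, percent) for the members reported, with the number of libraries with counts beside each bar and as the bar colour. The 9 members with no opposite-strand model stand at 0, and NR1D1 is the 1 of these with counts in all 6 libraries.

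Counts were present in all 6 libraries for 16 members, and each of these reached 1 CPM in every library. They were 1 of 5 steroid receptors (ESR1), both RXR genes, 3 of 11 RXR partners (PPARD, PPARG and NR1H2), 4 of 9 orphan receptors (COT2, NR1D1, NR1D2 and RORA), 4 of 6 coregulators (NRIP1, NCOA1, NCOA2 and NCOR1) and both PGRC genes. For comparison, 5530 of the 22569 named loci reached 1 CPM in every library. Of the named loci only 10525 had an opposite-strand model, against 26 of the 35 members, so the shares are not on a like basis. Without RORA, THA and NR1D1, whose reads could not be assigned to 1 gene as set out below, the number was 14. Models that touch RORA exons held 0 counts in 3 of the 5 libraries counted on the opposite strand. A further 7 members had counts in 2 to 5 libraries, 9 had counts in rhino 1 replicate 1 only, and RARB, THB and PRGC1 had none in any library.

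To set genes beside each other, each strand's CPM was divided by the exonic length of the model counted on that strand, in kilobases. On this per-length scale the mean level of the animals ran from 140.2 CPM per kilobase for PGRC1 to 4.11 for RORA. PGRC1, a haem-binding membrane protein of progesterone signalling, lay at the 92.0th percentile of the 5530 detected named loci, whose median was 25.1 CPM per kilobase. PPARG, the fatty acid receptor of adipocytes, followed at 73.7 CPM per kilobase and NRIP1, a ligand-dependent corepressor, at 66.5, the 82.4th and 80.4th percentiles. PGRC2 lay at 33.6 CPM per kilobase. The other 12 members lay below the median of detected named loci, from NCOR1 at 21.7 CPM per kilobase to the RORA locus at the 1.07th percentile. The values of the RORA and NR1D1 loci are not levels of RORA or NR1D1 alone, as set out below.

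Few steps in this order held in every library. PGRC1 exceeded PPARG, NRIP1 exceeded PGRC2 and PGRC2 exceeded NCOR1 per length in 6 of 6 libraries. PPARG exceeded NRIP1 in only 3 of 6 libraries. Of the other neighbours, each step was crossed in at least 1 library, so neighbours from NCOR1 down to RORA cannot be ordered beyond their spread.

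**Figure D2:**
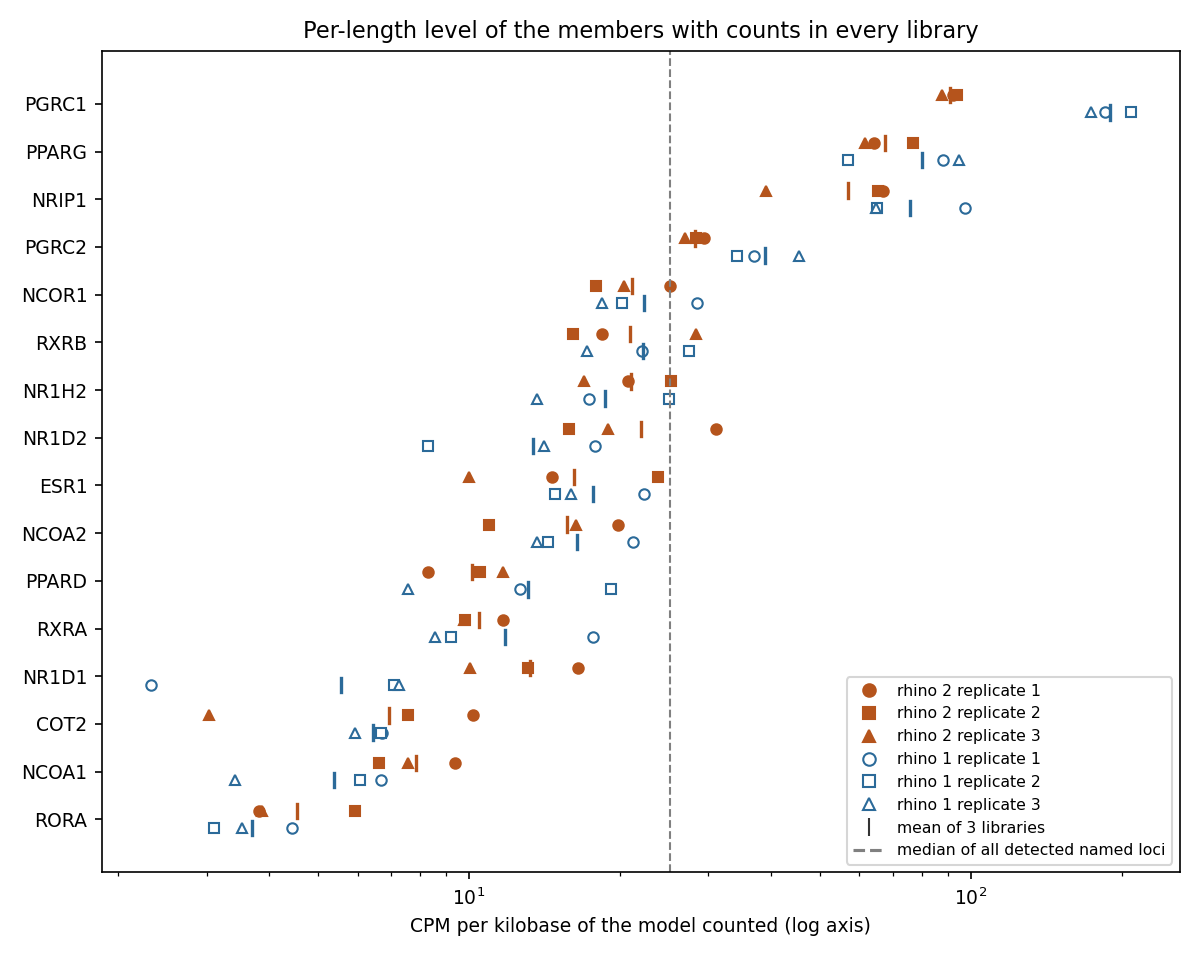
Per-length level in CPM per kilobase (log axis) of the 16 members with counts in all 6 libraries, ordered by the mean of the animals. RORA and NR1D1 stand for their loci, which share exons with ICE2 and THA. Filled symbols are the 3 rhino 2 libraries, open symbols the 3 rhino 1 libraries, short lines their means, and the dashed line is the median of detected named loci at 25.1 CPM per kilobase.

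Among the steroid receptors, ESR1, oestrogen receptor alpha, had 87.9, 144 and 60.3 CPM in rhino 2, against 135, 89.2 and 95.9 CPM in rhino 1. The rhino 1 values lay inside the rhino 2 range. The locus spans scaffold 38, positions 11553287 to 11818403 of the plus strand in the deposited table, whose genome build no label or header names. ESR2, oestrogen receptor beta, had 0 CPM in each rhino 2 library and 2.56, 0 and 0 CPM in rhino 1. ESR2 is among the loci without an opposite-strand model, so ESR1 and ESR2 can be set side by side in rhino 1 replicate 1 alone, where the per-length levels were 22.3 CPM per kilobase for ESR1 and 1.43 for ESR2.

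GCR, the glucocorticoid receptor (NR3C1), had 9.19, 21.3 and 4.64 CPM in rhino 2, against 14.2, 0 and 4.14 CPM in rhino 1. The values overlapped, and 1 library was at 0. In the 5 libraries counted on the opposite strand, these counts came from a short model over the first exons, with 1 of the 7 annotated introns. A longer unnamed model of 4112 bases at the other end of the gene overlaps it by 40.4% of the shorter length, under the 50% asked. With that model added, GCR had 38.1, 44.1 and 24.1 CPM in rhino 2, against 14.2, 31.2 and 15.2 CPM in rhino 1, with counts in every library and still with overlap.

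MCR, the mineralocorticoid receptor (NR3C2), had 2.26 CPM in rhino 1 replicate 1 and no opposite-strand model.

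RXRA and RXRB, the shared partners of the heterodimerising receptors, were both present throughout. RXRA had 32.2, 27.0 and 26.9 CPM in rhino 2, against 22.6, 25.3 and 23.5 CPM in rhino 1. Every rhino 2 library was above every rhino 1 library in CPM. Per length the order changed, with 11.7, 9.83 and 9.79 CPM per kilobase in rhino 2 and 17.6, 9.21 and 8.54 in rhino 1, and the groups overlapped. The named model counted in rhino 1 replicate 1 has 1281 exonic bases and the opposite-strand model 2746. RXRB had 51.8, 45.5 and 79.7 CPM in rhino 2, against 57.9, 77.3 and 48.3 CPM in rhino 1, with overlap.

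PPARG was the most abundant RXR partner per length. It had 114, 136 and 109 CPM in rhino 2, against 158, 101 and 169 CPM in rhino 1. The rhino 2 values lay within the rhino 1 range. PPARD, a more broadly expressed fatty acid receptor, had 30.2, 38.4 and 42.7 CPM in rhino 2, against 45.1, 69.9 and 27.6 CPM in rhino 1, again with overlap. PPARA, the fatty acid receptor of the liver, had 2.26 CPM in rhino 1 replicate 1 and 0 elsewhere, and at that per-length level its opposite-strand models would have held 0.968 to 2.19 counts in the other libraries.

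The oxysterol receptors differed in how many libraries held counts. NR1H2, LXR beta, had 42.0, 51.2 and 34.3 CPM in rhino 2, against 37.2, 50.6 and 27.6 CPM in rhino 1. The groups overlapped. NR1H3, LXR alpha, had 7.87, 0 and 8.35 CPM in rhino 2, against 15.1, 0 and 4.83 CPM in rhino 1. In both libraries at 0, replicate 2 of each animal, the level of rhino 1 replicate 1 would have given 8.54 counts in rhino 2 and 8.16 counts in rhino 1.

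RARA, retinoic acid receptor alpha, had 20.3, 21.3 and 15.8 CPM in rhino 2, against 19.9, 31.2 and 0 CPM in rhino 1. The rhino 2 values were close together, while rhino 1 replicate 3 was listed at 0 although its opposite-strand models cover all named exons. The level of rhino 1 replicate 1 would have given 33.9 counts there. RARG had 2.03 CPM in rhino 1 replicate 1 only, and RARB none. VDR, the vitamin D receptor, had 9 counts in rhino 1 replicate 1, or 0.677 CPM. RARG, RARB and VDR have no opposite-strand model.

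THA, thyroid hormone receptor alpha (THRA), and NR1D1, the haem-sensing clock repressor REV-ERB alpha, lie on opposite strands of scaffold 16 and share exons in the deposited table. THA spans positions 39640205 to 39663355 of the plus strand and NR1D1 positions 39640211 to 39667156 of the minus strand. THA had 0 CPM in each rhino 2 library and 42.6, 0 and 0 CPM in rhino 1. The NR1D1 locus had 51.8, 41.2 and 31.5 CPM in rhino 2, against 7.30, 22.3 and 22.8 CPM in rhino 1, without overlap between the animals. In the 5 libraries with counts per transcript, all NR1D1 counts lay on 1 assembled minus-strand transcript of 15 introns, and the annotated NR1D1 transcript had none. Of these introns, 9 are those of a THA transcript, including all 7 annotated THA introns, and 6 are the whole set of annotated NR1D1 introns. Of its 3144 exonic bases, 1568 lie in THA exons and 1623 in annotated NR1D1 exons. The counts per transcript do not split THA from NR1D1 on it. In the 5 libraries counted on the opposite strand, the minus strand is the one that holds counts of plus-strand genes such as THA. NR1D1 has no opposite-strand model on which its own reads would be counted there. The values of the NR1D1 locus in those libraries can thus not be taken as NR1D1 levels, and the share of each gene was not tested. Summed over both loci, the values were 51.8, 41.2 and 31.5 CPM in rhino 2, against 49.9, 22.3 and 22.8 CPM in rhino 1, and the animals overlapped. In the 5 libraries counted on the opposite strand the sum has no model for NR1D1 reads. It is thus not on a like basis with the sum in rhino 1 replicate 1. THB, thyroid hormone receptor beta, had no counts and no opposite-strand model.

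**Figure D3:**
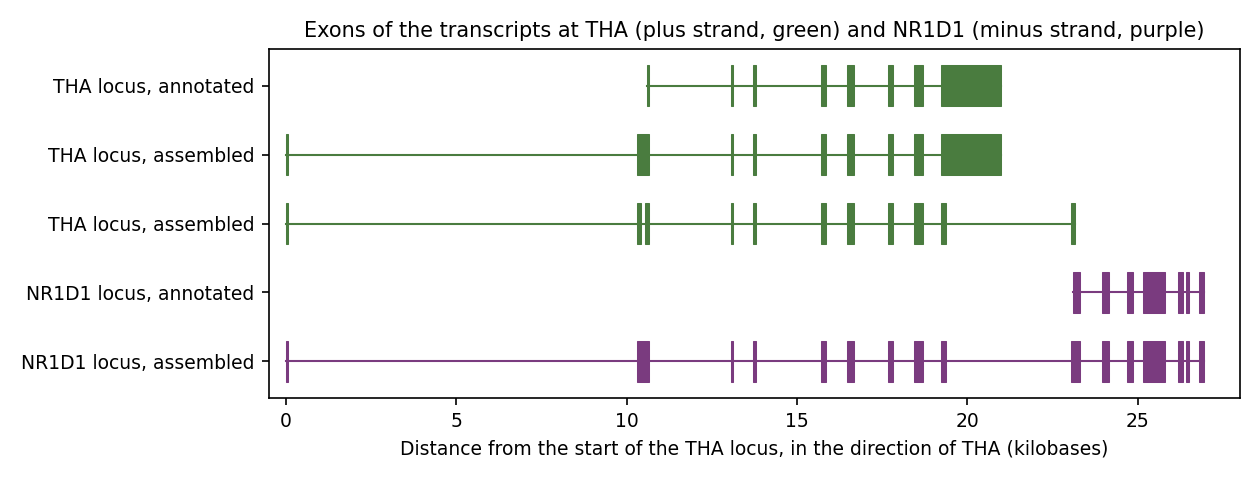
Exons (boxes) and introns (lines) of the transcripts at the THA locus, on the plus strand, and at the NR1D1 locus, on the minus strand, by distance in kilobases from the start of the THA locus. The assembled transcript at NR1D1 repeats the 7 annotated THA introns and goes on through the 6 annotated NR1D1 introns.

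Among the other orphan receptors, NR1D2, the clock repressor REV-ERB beta, had 66.9, 34.1 and 40.8 CPM in rhino 2, against 30.9, 17.8 and 30.4 CPM in rhino 1. Each rhino 2 library was above each rhino 1 library in CPM. Per length the groups overlapped, at 31.1, 15.8 and 19.0 CPM per kilobase in rhino 2 and 17.8, 8.29 and 14.1 in rhino 1.

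RORA, a clock activator that binds the same response elements as the REV-ERB proteins, shares its assembled locus with ICE2, a subunit of the little elongation complex. The locus had 16.4, 25.6 and 16.7 CPM in rhino 2, against 23.6, 13.4 and 15.2 CPM in rhino 1, with overlap. The annotated RORA transcript had 0 counts in each of the 5 libraries counted per transcript. In rhino 1 replicate 1, 81 counts were on the annotated ICE2 transcript and 232 on an assembled transcript of 29 exons that contains all 14 RORA introns and runs on into ICE2. The opposite-strand models that touch RORA exons held 7, 0 and 0 counts in rhino 2 and 0, 0 and 2 counts in rhino 1. The other opposite-strand models of the locus, which overlap ICE2 exons and no RORA exon, held 18, 18 and 18 counts in rhino 2 and 0, 9 and 20 counts in rhino 1. In each of the 5 libraries counted on the opposite strand, most counts of the locus were thus on models without a RORA exon.

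COT2, the orphan receptor COUP-TFII (NR2F2), had 24.9, 18.5 and 7.42 CPM in rhino 2, against 8.35, 16.4 and 14.5 CPM in rhino 1, with overlap. COT1, its paralog COUP-TFI (NR2F1), had 23.6, 0 and 16.7 CPM in rhino 2, against 0.226, 0 and 3.45 CPM in rhino 1. These were 36, 0 and 18 counts in rhino 2 and 3, 0 and 5 counts in rhino 1, and COT1 did not pass the filter for testing. With 0 in replicate 2 of both animals, the groups overlapped.

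The remaining orphan receptors each had libraries at 0. NR2F6 had 6.56, 0 and 9.27 CPM in rhino 2, against 10.3, 0 and 9.66 CPM in rhino 1. In replicate 2 of each animal, the per-length level of rhino 1 replicate 1 would have given 7.97 counts in rhino 2 and 7.62 in rhino 1. ERR1, oestrogen-related receptor alpha (ESRRA), had 7.87, 0 and 0 CPM in rhino 2, against 4.06, 0 and 0 CPM in rhino 1. NR2C2, the testicular receptor TR4, had 8.95 CPM and NR6A1, germ cell nuclear factor, 4.29 CPM in rhino 1 replicate 1, and both were 0 elsewhere. At those levels per length, the partial opposite-strand models would have held 3.85 to 8.71 counts of NR2C2 and 1.89 to 4.28 counts of NR6A1 in the other libraries.

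Among the coregulators, NRIP1 had the highest CPM of all members in every library. It had 506, 496 and 296 CPM in rhino 2, against 736, 494 and 492 CPM in rhino 1. Rhino 2 replicate 3 was the lowest and rhino 1 replicate 1 the highest, and the groups overlapped. The NRIP1 locus lies on scaffold 27, positions 28801370 to 28890742 of the plus strand, with 7547 exonic bases, and its opposite-strand models have 7582. NCOR1, the corepressor that ties unliganded receptors to histone deacetylase 3, had 198, 141 and 160.4 CPM in rhino 2, against 222, 159 and 145 CPM in rhino 1, with overlap.

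NCOA2, a p160 coactivator, had 164, 90.9 and 135 CPM in rhino 2, against 176, 119 and 113 CPM in rhino 1. The groups overlapped. NCOA1, another p160 coactivator, had 32.2, 22.7 and 26.0 CPM in rhino 2, against 40.0, 20.8 and 11.7 CPM in rhino 1, also with overlap. NCOA3, the p160 coactivator known as AIB1, had 30.2, 0 and 0 CPM in rhino 2, against 28.1, 0 and 14.5 CPM in rhino 1. A further unnamed model of 1865 bases, which overlaps NCOA3 by 8.26% of the shorter length and was not joined, would bring NCOA3 to 49.2, 0 and 16.7 CPM in rhino 2, against 28.1, 20.8 and 25.5 CPM in rhino 1. PRGC1, the coactivator PGC-1 alpha (PPARGC1A), had no counts and no opposite-strand model.

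The opposite-strand models split the long coregulator genes NCOA1, NCOA2 and NCOR1. For NCOA2, the model at the 5′ end had 15.2, 9.28 and 10.2 CPM per kilobase in rhino 2, and 0 and 9.36 in rhino 1 replicates 2 and 3. The model at the 3′ end had 24.0, 12.5 and 21.9 CPM per kilobase in rhino 2, and 27.6 and 17.6 in rhino 1 replicates 2 and 3. The 3′ model was the higher of the pair in all 5 libraries. For NCOR1, the 5′ model had 26.0, 22.8 and 19.8 CPM per kilobase in rhino 2, and 20.3 and 16.8 in rhino 1 replicates 2 and 3. The 3′ model of NCOR1 had 24.1, 11.1 and 21.2 CPM per kilobase in rhino 2, and 20.1 and 20.6 in rhino 1 replicates 2 and 3. Neither end of NCOR1 was the higher throughout. A 0 for NCOA2 in the 5′ model of rhino 1 replicate 2 stood beside 80 counts in its 3′ model. NCOA1 had 4 models, and in each of the 5 libraries the third from the 5′ end, of 1843 bases, held the most counts. It had 11.0, 11.6 and 14.1 CPM per kilobase in rhino 2, and 5.65 and 4.87 in rhino 1 replicates 2 and 3. The other 3 models of NCOA1 were each at 0 in at least 2 of these libraries.

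PGRC1 and PGRC2 (PGRMC1 and PGRMC2), haem-binding proteins of the endoplasmic reticulum and plasma membrane that are linked to progesterone responses of granulosa cells, were counted over strand models of very unequal length. PGRC1 had 169, 172 and 160.4 CPM in rhino 2, against 109, 382 and 318 CPM in rhino 1. Rhino 1 replicate 1 was the lowest of all libraries in CPM and the other rhino 1 libraries the highest. Its named model has 588 exonic bases and its opposite-strand model 1833. Per length, PGRC1 had 92.0, 93.8 and 87.5 CPM per kilobase in rhino 2 and 186, 209 and 174 in rhino 1. On that scale every rhino 2 library was below every rhino 1 library, with means of 91.1 ± 3.24 in rhino 2 and 189 ± 17.8 CPM per kilobase in rhino 1 (SD, n = 3 libraries each).

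PGRC2 had 76.8, 73.9 and 70.5 CPM in rhino 2, against 24.8, 89.2 and 119 CPM in rhino 1, with the rhino 2 values inside the rhino 1 range. Its models have 672 named and 2610 opposite-strand exonic bases. Per length, it had 29.4, 28.3 and 27.0 CPM per kilobase in rhino 2 and 36.9, 34.2 and 45.5 in rhino 1, without overlap. The length scaling assumes that reads lie evenly along each model. The locus of PGRC1 lies on scaffold X, positions 101385001 to 101391287 of the plus strand, and that of PGRC2 on scaffold 12, positions 20581134 to 20597184 of the minus strand.

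**Figure D4:**
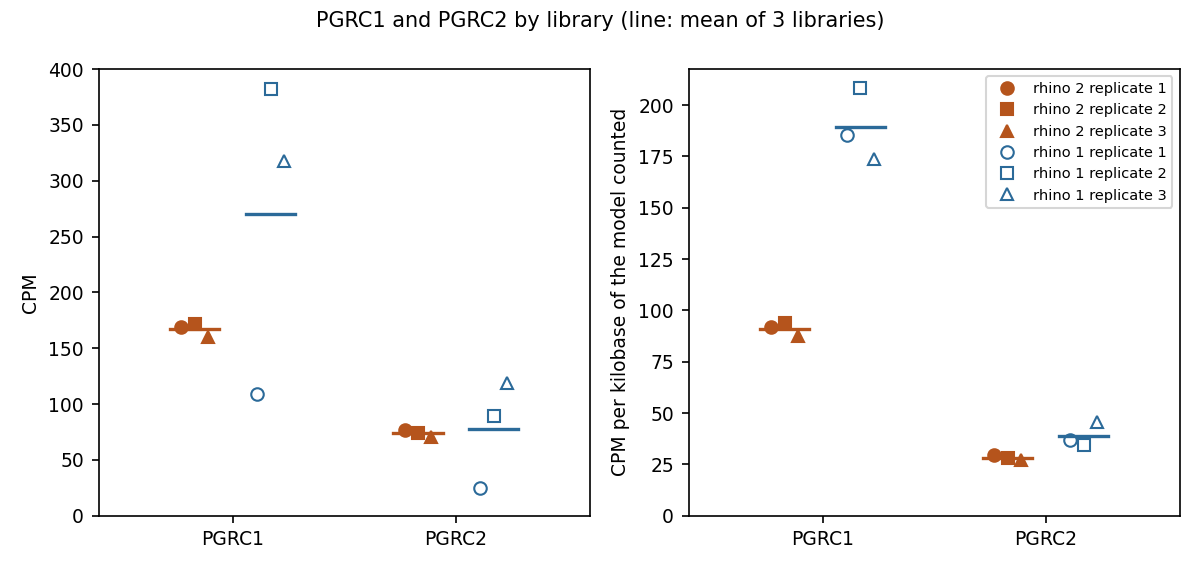
PGRC1 and PGRC2 by library in CPM (left) and in CPM per kilobase of the model counted (right), with filled symbols for rhino 2, open symbols for rhino 1 and lines for the mean of 3 libraries. Rhino 1 replicate 1 is the lowest library in CPM for both genes, and per kilobase all 3 rhino 2 libraries lie below all 3 rhino 1 libraries.

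Between the animals, no member passed the threshold. Of the 35 members, 20 passed the filter on low counts and were tested with edgeR's quasi-likelihood test, with p-values adjusted over 8532 loci. At an adjusted p under 0.05, 0 of 20 members were called, where 0.551% of all tested loci were (47 loci, 21 higher and 26 lower in rhino 2). Leaving out any 1 library other than rhino 1 replicate 1 left 0 to 4 loci called, none of them a member. At an unadjusted p under 0.05 the count was also 0 of 20 members, against 12.9% of all tested loci. The median log2 fold change, rhino 2 over rhino 1, was 0.06 over the tested members and 0.04 over all tested loci, with 13 members positive and 7 negative. In bulk samples, fewer cells of a type and less RNA per cell cannot be told apart.

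DESeq2 called no member, with 5.6% of its loci called. Limma-voom called the NR1D1 locus alone (log2 fold change 2.52, adjusted p = 0.0088 by limma-voom), with 8.93% of loci called. In the CPM values, 3 of 20 tested members, RXRA, NR1D1 and NR1D2, did not overlap between the animals, against 24.4% of all tested loci. That is a share below the background. In CPM per kilobase, 2 of 19 members modelled on both strands, PGRC1 and PGRC2, did not overlap, against 27.1% of such loci.

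The NR1D1 locus had a log2 fold change of 1.39 (SE 0.60, edgeR adjusted p = 0.402). In rhino 1 replicate 1 it held 97 counts beside 566 counted apart on THA. In the other 5 libraries its strand is the one opposite THA, and the counts were not split between the pair. With the pair summed to 1 locus, a setting added after the data were seen, the log2 fold change was 0.45 (SE 0.49, edgeR adjusted p = 0.884). That sum is not on a like basis in rhino 1 replicate 1 and in the other 5 libraries. NR1D2 had a log2 fold change of 0.92 (SE 0.46, edgeR adjusted p = 0.512). GCR had 0.91 with an SE of 1.54. The most negative value was that of PGRC1, at -0.56 (SE 0.42, edgeR adjusted p = 0.734). Standard errors were smallest for NCOR1, with a log2 fold change of 0.01 (SE 0.26), and PPARG, with -0.17 (SE 0.27). They were largest for NCOA3, NR2F6 and GCR, members with libraries at 0.

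The fold changes of several members moved when rhino 1 replicate 1, the library counted on the other strand, was left out. ESR1 then had a log2 fold change of 0.18, against -0.06 with all libraries, NCOA3 0.52 against -0.46, and NCOA1 0.88 against 0.23. None of these passed in either fit. Without rhino 1 replicate 1, the log2 fold change of PGRC1 was -0.93 (SE 0.17, edgeR adjusted p = 0.070), and 0 of 19 members passed, with 0.572% of loci called. With the exonic length of the counted model entered as an offset, a setting added after the data were seen, it was -0.94 (SE 0.17, edgeR adjusted p = 0.044). PGRC1 was then the 1 of 19 members called, where 2.06% of loci were. PGRC2 had a log2 fold change of 0.05 (SE 0.53) in all libraries, -0.38 (SE 0.26) without rhino 1 replicate 1 and -0.35 (SE 0.24) with the length offset, and did not pass in any of the 3 fits.

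**Figure D5:**
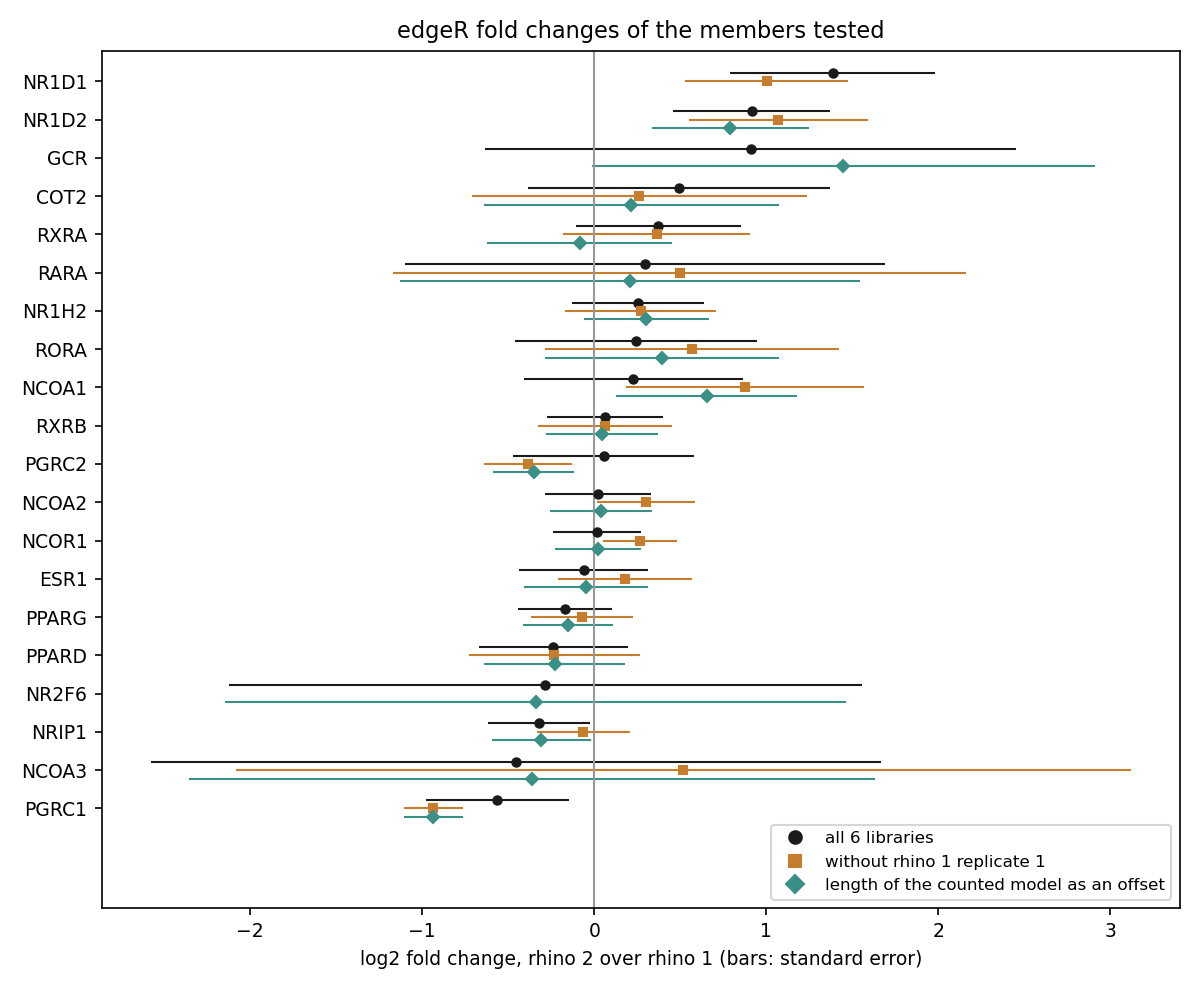
Fitted log2 fold change, rhino 2 over rhino 1, of the 20 tested members (horizontal axis, bars are standard errors), from edgeR with all 6 libraries, without rhino 1 replicate 1, and with the length of the counted model as an offset. PGRC1 lies at -0.56 with all libraries, at -0.93 without rhino 1 replicate 1 and at -0.94 with the offset, with standard errors of 0.42, 0.17 and 0.17.

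Ratios within a receptor family do not depend on the library total. Of 14 pairs listed, 4 had counts of both genes in all 6 libraries, and each was compared with a two-sided exact permutation test, whose smallest possible p with 3 against 3 libraries is 0.1. The per-length log2 ratio of PGRC1 to PGRC2 averaged 1.69 ± 0.04 in rhino 2 and 2.29 ± 0.34 in rhino 1 (SD, n = 3 each), which is 3.13, 3.31 and 3.24 times as much PGRC1 in the rhino 2 libraries and 5.02, 6.10 and 3.82 times in the rhino 1 libraries. The groups did not overlap, the difference was -0.60, and the exact p was 0.1, adjusted 0.4 over the 4 pairs.

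RXRA was below RXRB in all 6 libraries, with a mean log2 ratio of -0.97 ± 0.49 in rhino 2 and -0.97 ± 0.62 in rhino 1 (exact permutation p = 1). PPARD was below PPARG in all 6 libraries, at -2.74 ± 0.30 in rhino 2 and -2.67 ± 1.05 in rhino 1 (exact permutation p = 0.8). NR1D2 was above the NR1D1 locus in all 6 libraries, at 0.70 ± 0.37 in rhino 2 and 1.38 ± 1.40 in rhino 1 (exact permutation p = 0.7). In rhino 1 replicate 1, where THA is counted apart, NR1D2 was 7.66 times the NR1D1 locus per length, and in the other 5 libraries 1.17 to 1.95 times. In those 5 the strand of the NR1D1 locus is the one opposite THA. The ratio there cannot be read as NR1D2 to NR1D1, nor can the test over all 6 libraries. In rhino 1 replicate 1 the level of the NR1D1 locus was divided by 3144 exonic bases, of which 1568 lie in THA exons. The value of 7.66 is thus not a ratio over NR1D1 exons alone. The differences for RXRA and RXRB and for PPARD and PPARG were smaller than the SD of either animal.

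Genes around the receptors were taken from 11 lists of ligand supply, chaperones, cofactors and targets. Among 20 other nuclear receptors, 19 had a locus and 6 were tested, of which 1 rose and 0 fell. NR4A1, an orphan receptor induced as an immediate early gene, had 1568, 1174 and 1400.1 CPM in rhino 2, against 62.1, 56.5 and 47.6 CPM in rhino 1, without overlap (log2 fold change 4.73, SE 0.24, edgeR adjusted p = 0.0020). Its paralogs NR4A2, with a log2 fold change of 5.36, and NR4A3, with 4.72, did not pass, and rhino 1 replicates 2 and 3 were at 0 for both. DESeq2 called NR4A1 and NR4A3, and limma-voom NR4A1. With 1 library left out, the edgeR adjusted p of NR4A1 was 0.0061 to 0.059, and the call was lost without rhino 1 replicate 3.

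None of the tested genes of the other 10 lists passed by edgeR. The counts below at an unadjusted p under 0.05 stand beside 12.9% of all tested loci. Among coactivators and mediators, 0 of 29 tested genes passed and 3 had an unadjusted p under 0.05. The largest log2 fold changes were 1.18 for JHD2C (SE 0.61), 0.96 for KAT2A (SE 1.04) and -0.74 for SMCA4 (SE 0.21). KAT2A was at 0 in rhino 1 replicate 2. Neither DESeq2 nor limma-voom called any gene of this list. Among corepressor complex genes, 0 of 17 passed and 1 had an unadjusted p under 0.05. The largest were CXXC5 at 1.28, HDAC7 at 0.72 and HDAC1 at -0.69, with HDAC1 called by DESeq2 and CXXC5 by limma-voom.

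The steroid receptor chaperones, which hold unliganded receptors in a ligand-binding state, had 0 of 14 genes past the threshold and 6 with an unadjusted p under 0.05. The immunophilin FKBP4 had a log2 fold change of -1.08, the co-chaperone STIP1 -1.01, and FKBP5, an immunophilin that lowers glucocorticoid receptor affinity, 0.82. DESeq2 and limma-voom each called 3, FKBP4, STIP1 and the p23 co-chaperone TEBP. For the glucocorticoid receptor target genes, all 9 tested had positive values with a median log2 fold change of 1.90, against 0.04 over all tested loci. Yet 0 of 9 passed, and 6 had an unadjusted p under 0.05, against 12.9% of all tested loci. The list was chosen with earlier results of these data known, so its shared direction is no test of the receptor. The largest were the clock gene PER1 at 4.41 (SE 1.26), PDK4, a kinase that restrains pyruvate oxidation, at 3.04 (SE 0.63) and the transcription factor CEBPD at 2.86 (SE 0.50). PER1 and PDK4 each stand on a second list below, and FKBP5 stands on both the chaperone list and this one. DESeq2 called CEBPD, PDK4 and PER1, and limma-voom CEBPD, PDK4 and T22D3.

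Among 8 tested circadian clock genes, 0 passed and 2 had an unadjusted p under 0.05. The largest log2 fold changes were 4.41 for PER1 (SE 1.26), 1.05 for BMAL1 (SE 1.73) and 1.00 for KC1E (SE 0.27). PER1 was at 0 in rhino 1 replicates 2 and 3, and BMAL1 in replicate 2 of both animals. DESeq2 called PER1 and limma-voom none. Among 4 tested genes of retinoid supply and breakdown, 0 passed, 1 had an unadjusted p under 0.05 and no other tool called any. The largest were RDH10, a retinol dehydrogenase, at 2.73 (SE 1.36), RDH11 at -1.49 (SE 0.87) and DHRS3, which reduces retinaldehyde, at 1.05 (SE 0.33). RDH10 was at 0 in rhino 1 replicate 2.

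For steroid ligand synthesis and inactivation, 0 of 8 tested genes passed and 1 had an unadjusted p under 0.05. CP19A, the aromatase that makes oestrogens, had 180.5, 237 and 259.6 CPM in rhino 2, against 3418, 892 and 2929 CPM in rhino 1. The animals did not overlap, with a log2 fold change of -3.34 (SE 0.54, edgeR adjusted p = 0.054), and both DESeq2 and limma-voom called it. STAR, which carries cholesterol into mitochondria, had a log2 fold change of 2.40 (SE 1.27), and CP11A, the side-chain cleavage enzyme, -2.22 (SE 1.00). STAR was at 0 in rhino 1 replicate 2 and CP11A in rhino 2 replicate 2.

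Target genes of the lipid and sex steroid receptors were taken next. The log2 fold change was positive in 2 and negative in 4 of the LXR and RXR target genes, positive in 4 and negative in 4 of the PPAR and PGC-1 target genes, and positive in 6 and negative in 1 of the oestrogen and progesterone receptor target genes. Of 6 LXR and RXR target genes tested, 0 passed, 1 had an unadjusted p under 0.05 and no other tool called any. The largest were MYLIP at 1.80 (SE 1.18), APOE at -1.32 (SE 1.49) and SRBP1 at -1.31 (SE 0.37). MYLIP was at 0 in rhino 1 replicate 2 and APOE in rhino 2 replicate 2. Of 8 PPAR and PGC-1 target genes, 0 passed and 3 had an unadjusted p under 0.05, with PDK4 at 3.04, UCP2 at -2.09 and ACADM at -0.72, and both other tools called PDK4 and UCP2. Of 7 oestrogen and progesterone receptor target genes, 0 passed and 1 had an unadjusted p under 0.05. The largest were STC1 at 2.41 (SE 1.28), ATS1 at 1.47 (SE 0.90) and EDNRA at 0.98 (SE 0.38). STC1 was at 0 in rhino 1 replicate 2, and limma-voom called it.

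Marker sums describe the cells in which these levels were read. Of the 13 granulosa markers, 12 had counts in all 6 libraries, and the list summed to 10328 to 16920 CPM in rhino 2 and 15754 to 26499 CPM in rhino 1. Of these markers 5 had positive and 8 negative fold changes, and 4 had an unadjusted p under 0.05. By edgeR 1 rose, MIS, the anti-Müllerian hormone (log2 fold change 2.16, adjusted p = 0.019), and none fell, while DESeq2 and limma-voom each called MIS, CP19A, INHBA and INHBB. The log2 fold changes of the inhibin subunits were -1.56 for INHBA and -1.64 for INHBB. With 1 library left out, the edgeR adjusted p of MIS was 0.036 to 0.146, and the call was lost on leaving out any library other than rhino 1 replicate 1. Theca markers (5 of 5 with a locus) summed to 65.4 to 189 CPM in rhino 2 and 139.8 to 291 CPM in rhino 1. CP17A and INSL3 were at 0 in all libraries, and DESeq2 alone called LSHR, at an edgeR log2 fold change of -2.21. Smooth muscle and stroma markers (8 of 9) summed to 742 to 1081 CPM in rhino 2 and 547 to 6266 CPM in rhino 1. The highest sum was in rhino 1 replicate 2. Of the 4 tested, MYH11 was higher in rhino 2, at a log2 fold change of 2.01. The other 3 were lower, ACTA at -5.69 (SE 1.76), CNN1 at -2.32 (SE 0.39) and CO3A1 at -1.15 (SE 0.51). None passed by edgeR, while DESeq2 called MYH11, CNN1 and CO1A1, and limma-voom MYH11. Endothelial markers (6 of 7) summed to 169 to 257 CPM in rhino 2 and 57.3 to 105 CPM in rhino 1, nearly all from TIE2. CADH5, VGFR2 and TIE1 were at 0 in all libraries. DESeq2 and limma-voom called TIE2, at an edgeR log2 fold change of 1.47, and edgeR did not. Immune markers (5 of 8) reached at most 26.9 CPM in rhino 2 and 64.8 CPM in rhino 1, oocyte markers (10 of 10) were at 0 in rhino 2 and at most 3.91 CPM in rhino 1, and surface epithelium markers (6 of 7) summed to 107 to 197 CPM in rhino 2 and 119 to 692 CPM in rhino 1. No oocyte marker had an opposite-strand model, nor had CP17A, INSL3, CADH5, VGFR2, TIE1, MSLN, UPK3B, K2C7 or any immune marker with a locus except CD68. Values of 0 for these in the 5 libraries counted on the opposite strand cannot show that the cells were absent. The part of any of these cell types in the level of PGRC1 or of any other member was not tested.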

How the data were processed

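Per the labels' protocols, total RNA was extracted with a PicoPure kit and libraries were prepared with a NEBNext Ultra II RNA kit. Trimmomatic, HISAT2 and StringTie are named in the submitters' processing notes. Tool versions, the genome build and how strand was handled in counting are not stated in the labels or headers. The deposited values are whole-number counts, not normalized, per assembled transcript in 5 libraries and per assembled gene in rhino 2 replicate 1. Transcript counts were summed to 40656 genes, and unnamed genes were joined to the named gene on the opposite strand at 50% of the shorter exonic length with bedtools 2.31.1. Pairs of unnamed genes that mirror each other were joined likewise. This gave 25914 loci, of which 10525 of the 22569 named ones had an opposite-strand model. CPM used the library total, between 672410 and 13288936 counts.

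Rhino 2 was compared with rhino 1 by edgeR's quasi-likelihood test (version 4.0.16, R 4.3.3, TMM, filterByExpr, glmQLFit and glmQLFTest, two-sided, Benjamini-Hochberg adjustment over all tested loci, threshold 0.05). Alternatives were DESeq2 1.42.0, limma-voom (limma 3.58.1), DESeq2 size factors, other filters, a replicate block, leave-one-out fits and other strand joining. The length offset, the sum of THA and NR1D1, the set without RORA, THA and NR1D1, and the named-model length were added after the data were seen. The tests were tried on simulated counts with large known changes in loci of high counts and the same dispersion at every locus. The simulation had no strand split and no unequal model lengths, so it does not show how the tests behave on these libraries. Every member is named, except 1 that is not reported here. From each of the 11 pathway lists, the genes past the threshold and otherwise the 3 largest absolute fold changes among those tested are named, and genes that another tool called were named after their values were seen. The members, the 11 lists and the 7 marker lists were chosen with earlier results of these data known. No sequences are shown.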

Additional observations from a re-analysis of the deposited data

How the results depend on the processing

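Across the settings tried for the fit of all loci, the count of loci called, 47 with all libraries, moved most. It was 354 with no filter, 538 with DESeq2, 762 with limma-voom, 0 with the replicate number as a block, 0 with the genes as deposited, 80 with strands joined at any overlap, 142 with only loci modelled on both strands and 159 with the length offset. Leaving out 1 library gave 0 to 49. Without joining, DESeq2 and limma-voom were not run, and 239 genes had an unadjusted p under 0.05; with the block, 893 loci did. The count of members called, 0, became 1 with limma-voom (NR1D1) and 1 with the length offset (PGRC1), and stayed at 0 under the replicate block. Same-numbered libraries correlated at 0.21, 0.13 and 0.0055 in their deviations from the group means, and differently numbered ones at -0.18 to 0.02. The labels state no pairing, and the main fit did not take the numbers to pair the libraries. Whether same-numbered libraries share an effect was not tested. The median log2 fold change of the members, 0.06, was -2.04 with the genes as deposited, where NR1D1 was the 1 member tested. With 1 library left out, the difference in log2 ratio changed sign for RXRA/RXRB (-0.30 to 0.32), NR1D2/NR1D1 (-1.25 to 0.11) and PPARD/PPARG (-0.55 to 0.49), and not for PGRC1/PGRC2. The cause of these changes was not tested. The sign of the fold change varied over the settings for 14 of the 20 tested members. For most members with counts in rhino 1 replicate 1 only, a lack of opposite-strand models limits what the other libraries can show.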
